A study of Homo sapiens with 6 samples.

Results

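The growth factor genes of the FGF, IGF, PDGF, VEGF, neuregulin and angiopoietin families and the receptors that carry their signals were followed through H3K4me3 peak calls in BE(2)-C cells. Members were the names in the deposited lists and tables that matched a fixed naming rule. It covered numbered FGF, FGFR, IGF, IGFR, IGFBP, ERBB, NRG and ANGPT symbols, EGFR, and names beginning with PDGF or VEGF. This gave 54 of 16500 names. Antisense names such as IGF2-AS, related names such as FGFBP3 and ANGPTL4, and older symbols such as FIGF for VEGFD fell outside it. BE(2)-C is an established human neuroblastoma line with an amplified MYCN gene. Cells were transfected with WDR5 siRNA-1 or with control siRNA for 24 hours, and H3K4me3, the promoter mark of active and poised genes, was profiled by chromatin immunoprecipitation and sequencing. WDR5 is a core subunit of the complexes that methylate lysine 4 of histone H3. Each siRNA had 1 H3K4me3 library, so no replicate error exists, and no test between the siRNAs could be made. The data came from 1 cell line and 1 siRNA sequence against WDR5. The data were the names of genes with a peak no more than 1 kb from their transcription start site (TSS), per library, with no height, read number or depth. A call is therefore present or absent, and an absent call is not an absent mark. TSS positions on hg19 came from a table of 3254 promoters bound by N-Myc and a table of 6331 that were not, and 36 members had a row there.

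Receptor tyrosine kinases sit in the cell membrane and are switched on when a secreted ligand brings receptor chains together. The activated receptors feed the RAS-MAPK and PI3K-AKT cascades, which drive growth, survival and migration. FGF receptors need heparan sulfate or Klotho as a co-factor, IGF ligands travel bound to IGF binding proteins, and neuregulins act through ERBB3 and ERBB4. IGF2 and neuregulin signals are known in cells of neural crest origin, from which neuroblastoma arises.

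Of the 54 names, 28 were listed in both libraries, 1 only with WDR5 siRNA, 13 only with control siRNA and 12 in neither. The members had 29 calls with WDR5 siRNA (53.7%) and 41 with control siRNA (75.9%), beside 71.9% and 82.5% of all names in the files. Of the 41 names called with control siRNA, the 13 without a WDR5 siRNA call made up 31.7% (exact 95% interval over genes 18.1 to 48.1%). Over all names of the series that share was 13.5%, or 1845 of 13618. The intervals treat genes as independent draws and do not cover library error. A member that had no promoter table row could enter only through a call, so 18 members were bound to have one. Among the 36 members with a row, 18 were called with WDR5 siRNA and 23 with control siRNA. These were 50.0% and 63.9% of the members with a row, beside 62.8% and 70.5% of all promoters in both tables. Of the 23, 6 lacked a WDR5 siRNA call (26.1%), beside 11.6% of all promoters in the tables with a control siRNA call.

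**Figure D1:**
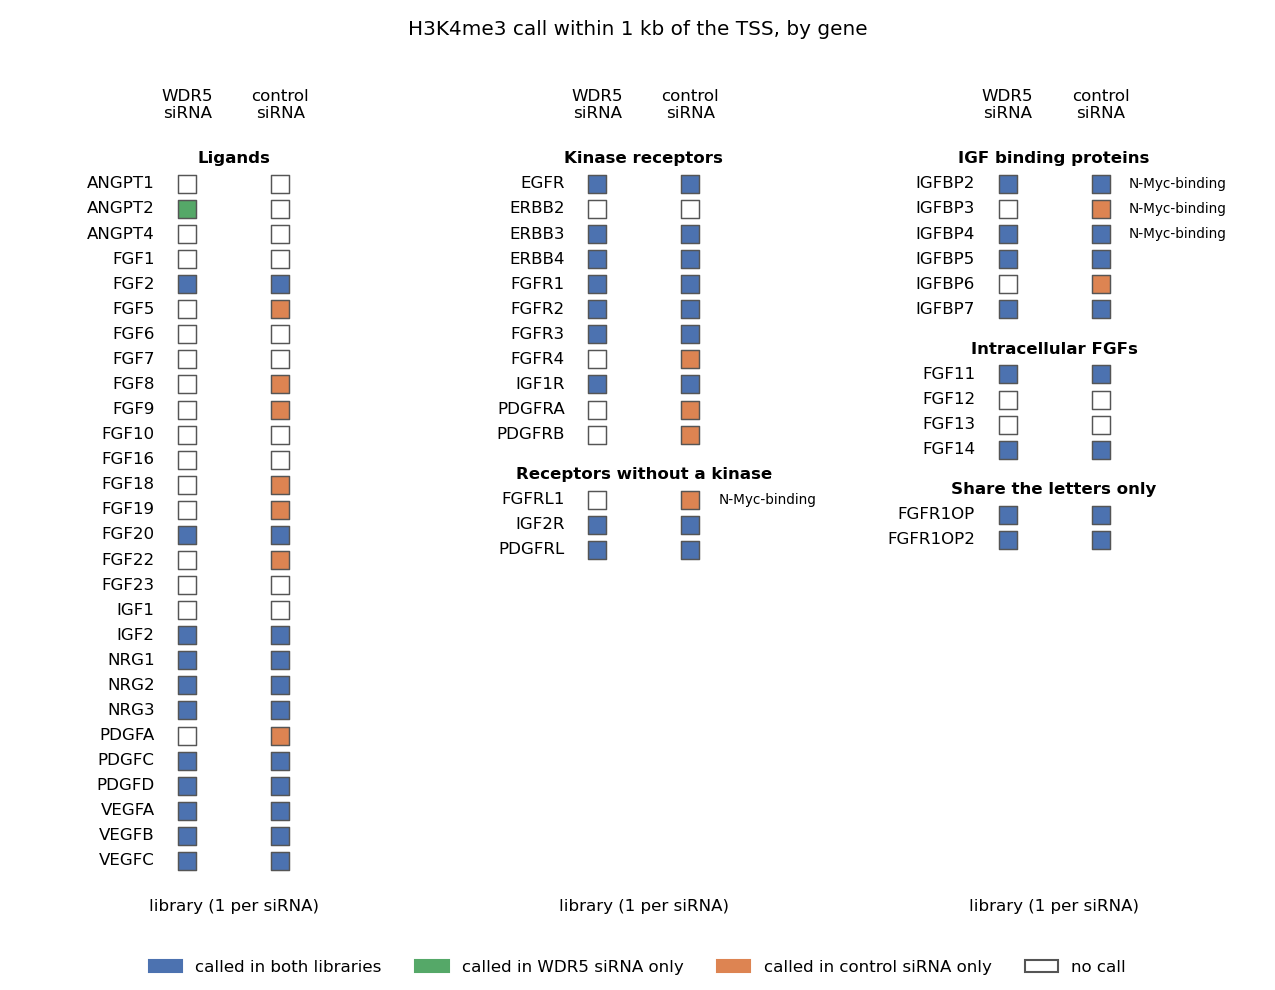
Each row is a member gene and each square a library, WDR5 siRNA on the left and control siRNA on the right, filled where the gene had an H3K4me3 call within 1 kb of its TSS and open where it had none. Of the 54 genes, 28 were called in both, 13 only with control siRNA, 1 (ANGPT2) only with WDR5 siRNA and 12 in neither, and names marked N-Myc-binding have a row in that promoter table.

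The promoter sequences of 4 FGF ligands are shown as examples of the different calls. H3K4me3 is known to be laid down at promoters rich in CpG dinucleotides. The sequences are the 250 bases before the start of the gene, read 5′ to 3′ on the gene's strand, from RefSeq on GRCh38.p14, and capitals mark each CpG. FGF2 was called in both libraries (chr4:122826581-122826830, plus strand). FGF18 (chr5:171419397-171419646, plus strand) and FGF22 (chr19:639629-639878, plus strand) were called only with control siRNA. FGF7 was called in neither library (chr15:49422992-49423241, plus strand).
FGF2: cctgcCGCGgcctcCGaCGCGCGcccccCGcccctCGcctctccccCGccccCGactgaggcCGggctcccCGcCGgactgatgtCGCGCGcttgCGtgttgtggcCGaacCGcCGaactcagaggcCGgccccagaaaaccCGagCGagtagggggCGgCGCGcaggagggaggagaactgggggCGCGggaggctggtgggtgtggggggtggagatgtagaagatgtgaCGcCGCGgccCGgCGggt
FGF18: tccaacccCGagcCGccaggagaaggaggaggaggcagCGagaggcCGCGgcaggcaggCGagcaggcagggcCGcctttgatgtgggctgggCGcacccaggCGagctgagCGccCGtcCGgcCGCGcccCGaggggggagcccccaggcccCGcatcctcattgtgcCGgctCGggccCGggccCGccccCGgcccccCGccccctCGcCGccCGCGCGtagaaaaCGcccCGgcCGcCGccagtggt
FGF22: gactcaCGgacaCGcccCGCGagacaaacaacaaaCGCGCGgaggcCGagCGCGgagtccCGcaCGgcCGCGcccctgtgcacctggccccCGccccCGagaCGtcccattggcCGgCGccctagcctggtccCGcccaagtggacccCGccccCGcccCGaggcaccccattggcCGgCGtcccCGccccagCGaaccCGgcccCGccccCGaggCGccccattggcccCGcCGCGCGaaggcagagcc
FGF7: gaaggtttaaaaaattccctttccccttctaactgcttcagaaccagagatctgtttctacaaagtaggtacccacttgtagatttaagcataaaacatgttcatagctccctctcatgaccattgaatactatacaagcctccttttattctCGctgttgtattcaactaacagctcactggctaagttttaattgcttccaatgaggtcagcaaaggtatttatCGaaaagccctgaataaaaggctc
FGF2 held 33 CpGs in these bases, FGF18 held 31 and FGF22 held 35, while FGF7 held 2. The G and C content was 75.2% for FGF2, 78.8% for FGF18, 78.0% for FGF22 and 38.4% for FGF7. The promoters called only with control siRNA were thus as CpG-rich as that of FGF2, and FGF7 was the one that stood apart.

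Promoter windows of 300 bases, 250 before and 50 after the start, were present in the RefSeq table for 39 of the 54 members, with 65 windows in all. For genes with several starts the window richest in CpG was taken, since the calls are by gene and not by start. All 7 ligands with a window and no call in either library had few CpGs, namely IGF1 with 1, FGF7 with 4, FGF1, FGF23 and ANGPT4 with 8 each, FGF6 with 9 and FGF10 with 13. The 4 ligands called only with control siRNA had 31 (FGF5), 38 (FGF18), 46 (FGF22) and 49 (PDGFA). The 6 ligands called in both had 26 to 45, with PDGFD lowest and NRG3 highest. The called and the uncalled ligands with a window did not overlap, while the ligands called in both and those called only with control siRNA did. Of the 28 ligands 17 had a window, and FGF16 and ANGPT1, both in neither list, had none. Over all names with a window, the median was 29 CpGs for names called in both, 26 for names called only with control siRNA and 6 for names called in neither. The quartiles were 22 to 37, 18 to 33 and 3 to 20 in the same order. Low CpG numbers in uncalled names were thus not particular to the ligands.

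The lowest CpG numbers of called receptors were below those of called ligands, but the medians did not all go that way. Among those called in both, the median was 46 for receptors and 36.5 for ligands, beside 29 over all names. Among those called only with control siRNA it was 27.5 for receptors and 42 for ligands, beside 26 over all names. IGF1R (55 CpGs), FGFR2 (52), FGFR3 (51), IGF2R (41) and EGFR (33) were CpG-rich and called in both libraries, and ERBB4 was called in both with 19. PDGFRA (32), FGFR4 (30), FGFRL1 (25) and PDGFRB (11) were called only with control siRNA. ERBB2 had 24 CpGs and no call in either library. Outside the receptors and secreted ligands, FGF12 and FGF13 had 34 CpGs each in their richest window and were in neither list, and IGFBP5 had 9 and was listed in both. The start that the authors used for a gene could not be matched to a window, because the builds differ.

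**Figure D2:**
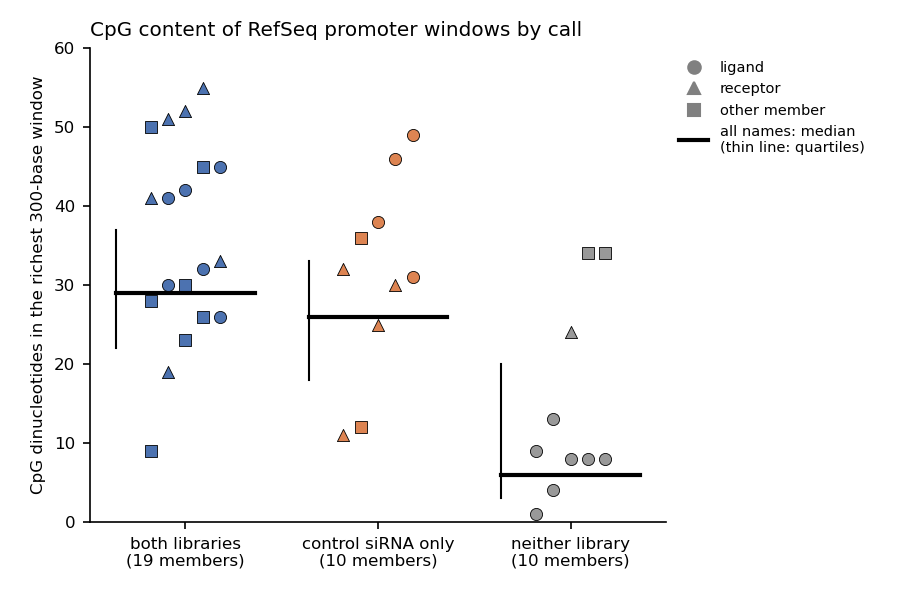
The vertical axis is the number of CpG dinucleotides in the richest 300-base RefSeq promoter window of each of 39 members, by H3K4me3 call, with circles for ligands, triangles for receptors and squares for other members. Thick lines are the medians over all names with that call (29, 26 and 6 CpGs) and thin lines their quartiles. The 7 uncalled ligands with a window lie at 13 or below.

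Secreted ligands numbered 28. With WDR5 siRNA 12 of them were called, and with control siRNA 18. In both libraries 11 were listed, 1 was listed only with WDR5 siRNA, 7 only with control siRNA and 9 in neither. The 7 were 38.9% of the 18 ligands called with control siRNA (interval 17.3 to 64.3%), beside 13.5% over all names. Every ligand with a promoter table row was N-Myc-non-binding. Over all non-binding promoters the share was 17.9%, which the interval includes, and over all names in neither table it was 15.5%. Of the 6 ligands with a row and a control siRNA call, 2 lacked a WDR5 siRNA call (33.3%). Most of them were FGFs, with 6 FGFs and PDGFA. Among the 14 secreted FGFs, 2 were called with WDR5 siRNA (14.3%) and 8 with control siRNA (57.1%), beside 71.9% and 82.5% of all names. FGF8, FGF18, FGF19 and FGF22 had no promoter table row and entered through the control siRNA call alone. FGF2 and FGF20 also had no row. Of the 8 secreted FGFs with a row, 0 were called with WDR5 siRNA and 2 with control siRNA. Among the other 14 ligands the number was 10 with either siRNA, and 9 of these were the same genes. This split carries no test, since genes are not replicates of a condition.

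The FGF ligands fall into subfamilies by sequence, and calls differed within most of them. In the FGF1 subfamily, FGF2, a broad mitogen known as basic FGF, was listed in both libraries and FGF1, the acidic FGF, in neither. FGF8 and FGF18, signals of embryonic patterning and of bone growth from 1 subfamily, were both listed only with control siRNA. In the FGF9 subfamily, FGF20 was listed in both, FGF9 only with control siRNA and FGF16 in neither. In the FGF7 subfamily, whose members signal from mesenchyme to epithelium, FGF22, which also acts at synapses, was listed only with control siRNA, and FGF7 and FGF10 were in neither list. FGF5, which ends hair growth, was listed only with control siRNA, and FGF6 of the same subfamily was in neither list. Of the endocrine FGFs, FGF19, a gut hormone that restrains bile acid synthesis, was listed only with control siRNA, and FGF23, the bone hormone of phosphate balance, in neither.

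The promoter tables placed 8 of the 14 secreted FGFs, all in the N-Myc-non-binding table. None of the 8 had a call with WDR5 siRNA, and 2 of them had one with control siRNA. The 2 were FGF5 (chromosome 4, position 81187742) and FGF9 (chromosome 13, position 22245215). FGF1 (chromosome 5, position 142066060), FGF6 (chromosome 12, position 4554780), FGF7 (chromosome 15, position 49715375), FGF10 (chromosome 5, position 44388784), FGF16 (chromosome X, position 76709647) and FGF23 (chromosome 12, position 4488894) were in neither list. Of all non-binding promoters, 48.2% had a call with WDR5 siRNA and 58.0% with control siRNA. FGF6 and FGF23 are neighbours, with their TSSs 65886 bp apart, and so are not separate observations of the region.

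The IGF, PDGF, VEGF and neuregulin ligands among the members were called in both libraries with few exceptions. IGF2, the fetal growth factor, was listed in both (chromosome 11, position 2162341), while IGF1, its adult counterpart made mainly in liver, was in neither (chromosome 12, position 102874378). NRG1, NRG2 and NRG3, the neuregulins of nerve and heart development, were listed in both, and NRG3 lay in the non-binding table (chromosome 10, position 83635070). VEGFA, the main signal for new blood vessels, VEGFB, and VEGFC, which drives lymphatic growth (chromosome 4, position 177713895), were listed in both. VEGFD stood in the non-binding table under its older symbol FIGF (chromosome X, position 15402535). It was therefore not a member, and it was in neither list. PDGFC and PDGFD (chromosome 11, position 104035027) were listed in both, and PDGFA, a ligand of PDGFRA, only with control siRNA.

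The angiopoietins are ligands of the endothelial receptor TEK. ANGPT2, which opposes ANGPT1 at that receptor in many settings, was the one member listed with WDR5 siRNA and not with control siRNA (chromosome 8, position 6420784). Over the series 97 names, 0.817% of those with a WDR5 siRNA call, were of this kind. Among non-binding promoters without a control call the share was 1.28%, or 34 of 2656. ANGPT1 (chromosome 8, position 108510254) and ANGPT4 (chromosome 20, position 896960) were in neither list. TEK and its partner TIE1 were also in neither list.

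Receptors numbered 14, of which 9 were called with WDR5 siRNA and 13 with control siRNA. In both libraries 9 were listed, 4 only with control siRNA and 1 in neither. The 4 were 30.8% of the 13 receptors called with control siRNA (interval 9.09 to 61.4%), and the interval includes the 13.5% over all names. Against ligands, the share without a WDR5 siRNA call was 38.9% for ligands and 30.8% for receptors. The difference of 8.12 percentage points had an interval over genes from -24.5 to 37.0 (Newcombe), so these numbers cannot tell ligands from receptors. Of members with a promoter table row, 5 of 16 ligands (31.2%, interval 11.0 to 58.7%) and 7 of 11 receptors (63.6%, interval 30.8 to 89.1%) were called with WDR5 siRNA. With control siRNA the numbers were 6 of 16 ligands (37.5%, interval 15.2 to 64.6%) and 10 of 11 receptors (90.9%, interval 58.7 to 99.8%). Over all promoters of both tables the shares were 62.8% with WDR5 siRNA and 70.5% with control siRNA, and over the non-binding table, which held all 16 of these ligands and 10 of the 11 receptors, they were 48.2% and 58.0%. The receptor share with WDR5 siRNA was thus near that of all promoters and above that of the non-binding table. Among the 10 non-binding receptors, 7 were called with WDR5 siRNA (70.0%, interval 34.8 to 93.3%). With control siRNA 9 of them were called (90.0%, interval 55.5 to 99.8%). Both intervals include the share of all non-binding promoters. The ligand and receptor intervals overlapped in either library, which does not show that the shares are alike. No interval for these differences and no test across genes was made.

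Among the FGF receptors, FGFR1 (chromosome 8, position 38325363), FGFR2 (chromosome 10, position 123357972) and FGFR3 (chromosome 4, position 1795039) were listed in both libraries. FGFR4, a receptor for FGF19 in liver, was listed only with control siRNA (chromosome 5, position 176513921). FGFRL1, which binds FGFs but has no kinase domain, was also listed only with control siRNA (chromosome 4, position 1005760). FGFRL1 lies 789279 bp from FGFR3 on the same chromosome arm, and the neighbours differed in their calls. The names FGFR1OP and FGFR1OP2 match by their letters alone. They encode proteins first met as fusion partners of FGFR1, and FGFR1OP is the older symbol of the centrosomal protein gene CEP43. Both were listed in both libraries and are counted with neither ligands nor receptors.

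The PDGF receptors PDGFRA (chromosome 4, position 55095264) and PDGFRB, which mark mesenchymal cells, were both listed only with control siRNA. PDGFRL, a shorter relative without a kinase, was listed in both (chromosome 8, position 17433942). PDGFRA stands on chromosome 4 near KIT and KDR, its relatives in sequence. KIT, the stem cell factor receptor, has its TSS 428831 bp away and was listed only with control siRNA, and KDR, the main VEGF receptor, lies 896498 bp away and was in neither list. In the control list, which follows genome order, PDGFRA stood between GSX2 and KIT, all 3 of them listed only with control siRNA. The calls of PDGFRA and KIT thus come from 1 stretch of the genome.

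The ERBB and IGF receptors were mostly listed in both libraries. EGFR (chromosome 7, position 55086725), ERBB3 (chromosome 12, position 56473809) and ERBB4 were called with either siRNA. ERBB3 has a weak kinase and signals by pairing with ERBB2. ERBB2, which has no known ligand of its own, was in neither list (chromosome 17, position 37856254). With the 3 neuregulins, 6 of 6 ERBB family names called with control siRNA were also called with WDR5 siRNA. With 13.5% of control calls missing over all names, a count of 6 of 6 does not set the family apart. IGF1R, the receptor for both IGFs, and IGF2R, which clears IGF2 and carries lysosomal enzymes (chromosome 6, position 160390131), were listed in both. Of IGF1R, IGF2R and IGF2, none had a control siRNA call that was missing with WDR5 siRNA. At 13.5% over all names, that does not set them apart. With the IGF binding proteins, 2 of the 9 IGF family names called with control siRNA lacked a WDR5 siRNA call (22.2%).

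**Figure D3:**
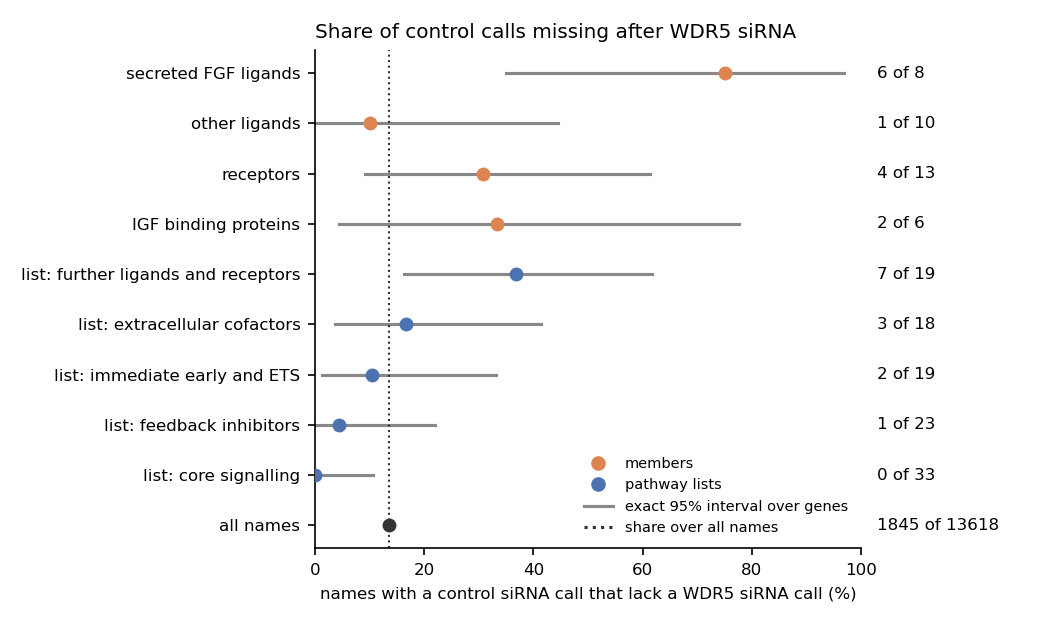
Points give the percent of names called with control siRNA that had no call with WDR5 siRNA, for members by role (orange), for pathway lists (blue) and for all names (black), with exact 95% intervals over genes as lines and counts at the right. Secreted FGF ligands stand at 6 of 8, other ligands at 1 of 10, receptors at 4 of 13 and the core signalling list at 0 of 33, against 13.5% over all names (dotted line). Members without a promoter table row could enter only through a call.

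The IGF binding proteins carry IGFs in fluid and adjust their access to the receptor. Of the 6 found, 4 were called with WDR5 siRNA and 6 with control siRNA. The 2 without a WDR5 siRNA call were 33.3%, with an interval of 4.33 to 77.7% that includes the 13.5% over all names. IGFBP2, IGFBP4, IGFBP5 and IGFBP7 were listed in both. IGFBP3, the main carrier of IGFs in serum, and IGFBP6, which prefers IGF2, were listed only with control siRNA. IGFBP2 (chromosome 2, position 217498127) and IGFBP5 (chromosome 2, position 217560272) have TSSs 62145 bp apart and shared their calls, yet IGFBP2 stood in the N-Myc-binding table and IGFBP5 in the non-binding table. IGFBP7 lies on chromosome 4 at position 57976551. The intracellular FGFs, which bind sodium channels in neurons and do not act as secreted ligands, were split. FGF11 and FGF14 (chromosome 13, position 103054124) were listed in both, and FGF12 (chromosome 3, position 192126838) and FGF13 (chromosome X, position 138287185) in neither.

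Few members were N-Myc-binding, namely FGFRL1, IGFBP2, IGFBP3 (chromosome 7, position 45960871) and IGFBP4 (chromosome 17, position 38599676). IGFBP2 and IGFBP4 had a call with WDR5 siRNA, and all 4 had one with control siRNA, beside 91.0% and 94.9% of all N-Myc-binding promoters. The 2 without one, FGFRL1 and IGFBP3, were 2 of 4, where the share over all N-Myc-binding promoters was 4.18%, or 129 of 3087. No secreted ligand with a table row was N-Myc-binding. In the non-binding table, 4 of the 19 members with a control siRNA call had none with WDR5 siRNA (21.1%, interval 6.05 to 45.6%). They were FGF5, FGF9, FGFR4 and PDGFRA, and the share over all non-binding promoters was 17.9%. Among names in neither table, 7 of 18 members were called only with control siRNA (38.9%), against 15.5% of all such names.

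N-Myc binds DNA with MAX at E-boxes, of which CACGTG is the best known form. That motif reads the same on both strands and was searched in the RefSeq windows. It was present in a window of 5 of the 39 members with a window, namely FGF11, FGF14, FGFR4, FGFRL1 and IGF2R. Of all 35116 windows 7.26% held it. By gene, it was found for 11.6% of all names with a window, for 18.4% of N-Myc-binding names and for 8.0% of non-binding names. The 2 sequences shown are those of receptors in different N-Myc classes, FGFRL1 (binding, called only with control siRNA; chr4:1012214-1012463, plus strand) and IGF2R (non-binding, called in both; chr6:159968832-159969081, plus strand). They are the 250 bases before the start from RefSeq on GRCh38.p14, with CACGTG in capitals.
FGFRL1: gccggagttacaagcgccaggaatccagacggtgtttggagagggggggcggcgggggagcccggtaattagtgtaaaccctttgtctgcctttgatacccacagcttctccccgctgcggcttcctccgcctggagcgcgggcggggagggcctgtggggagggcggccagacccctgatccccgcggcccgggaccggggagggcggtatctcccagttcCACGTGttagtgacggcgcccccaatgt
IGF2R: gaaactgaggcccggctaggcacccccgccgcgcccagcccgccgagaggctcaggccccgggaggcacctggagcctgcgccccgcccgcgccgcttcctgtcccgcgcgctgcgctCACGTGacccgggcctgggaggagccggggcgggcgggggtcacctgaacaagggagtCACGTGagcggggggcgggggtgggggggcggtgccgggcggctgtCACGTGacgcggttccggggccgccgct
FGFRL1 held 1 CACGTG, which began 28 bases before the start. IGF2R held 3, which began 132, 74 and 28 bases before the start. None of the other 3 N-Myc-binding members had the motif in a window. A match in these letters is not a binding site, and how the authors set the N-Myc classes is not stated in these sources.

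The promoter tables are titled as H3K4me3 quantification but hold no level, and their row order has no stated meaning. The members' places in it are set beside their calls here. Row position and call may not be separate observations, which was not tested. In the non-binding table of 6331 rows, EGFR held row 41, FGFR1 row 119, IGF2R row 671 and IGF2 row 1101. These 4 were among the members listed in both, whose 15 positions ran from 0.648 to 47.8% of the table length. The 4 members listed only with control siRNA lay at 43.6% (FGFR4, row 2757), 46.4% (FGF5, row 2935), 53.9% (FGF9, row 3409) and 55.6% (PDGFRA, row 3521). The 12 in neither list lay from 64.0% (FGF13, row 4055) to 89.8% (ERBB2, row 5684), and ANGPT2 lay at 98.8% (row 6253). The 12 unlisted members lay further down the table than all members called with control siRNA, while the positions of members listed in both and of those listed only with control siRNA overlapped. NRG3 (row 2908), FGF5, FGFR3 (row 2999) and FGF14 (row 3025) were consecutive among the members in this order, and FGF5 was the one without a WDR5 siRNA call. All promoters of the table showed the same order, with medians of 23.9% for those called in both, 51.5% for those called only with control siRNA, 78.4% for those in neither list and 98.4% for those called only with WDR5 siRNA, so the order is not one of the members alone. Ligands had a median position of 70.4% and receptors of 38.2%.

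**Figure D4:**
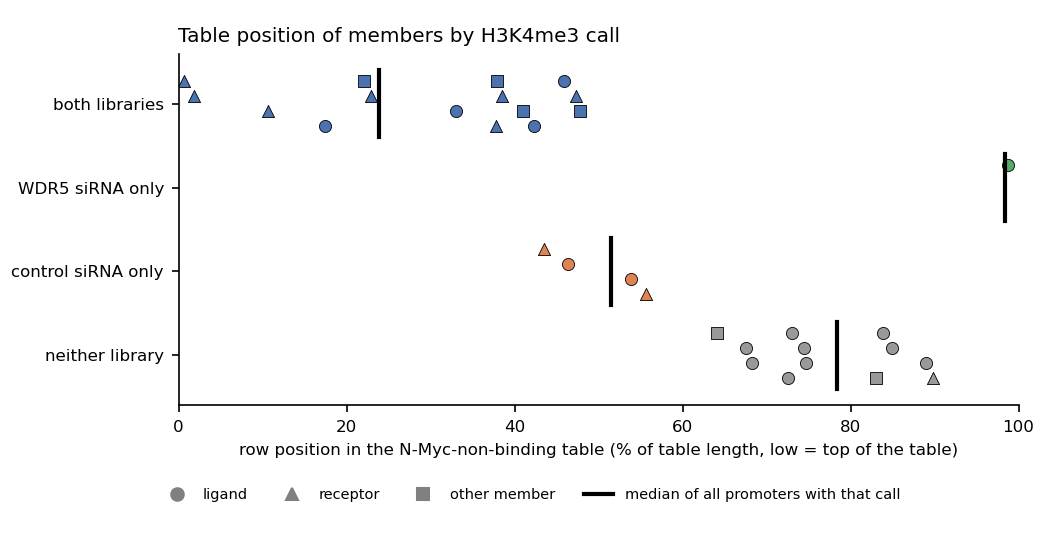
The horizontal axis is the row position of 32 members in the N-Myc-non-binding promoter table as a percent of its length, by H3K4me3 call, with circles for ligands, triangles for receptors and squares for other members. Black bars are the medians over all promoters with that call, and the members in neither list all lie at 64.0% or beyond.

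In the N-Myc-binding table of 3254 rows, IGFBP2 held row 251 and IGFBP4 row 2351. The members without a WDR5 siRNA call came later, with IGFBP3 at row 3007 and FGFRL1 at row 3051. Over that table, promoters called only with control siRNA had a median position of 90.3%, against 45.6% for those called in both.

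The other genes of the pathway were read from 5 lists holding 138 genes. Each list's share of control siRNA calls that were missing with WDR5 siRNA is to be set beside 13.5% over all names. Of 35 core signalling genes, 33 were called with WDR5 siRNA and the same 33 with control siRNA (94.3%, beside 71.9% and 82.5% of all names), among them the adaptor genes GRB2 and SHC1 and the RAS activator genes SOS1 and SOS2. Of 26 feedback inhibitors and phosphatases, 22 were called in both, including SPRY1, SPRY2, SPRY4 and SPRED1, which restrain the RAS-MAPK pathway. GRB14, an adaptor that inhibits the insulin receptor, was the 1 of 23 called only with control siRNA (4.35%). Of the immediate early and ETS genes, 17 of the 19 called with control siRNA were called in both, such as FOS, FOSL2, JUN and JUNB. The other two, FOSB and FOSL1, encode AP-1 subunits and were called only with control siRNA (10.5%).

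Further ligands and receptors of the same kinds, outside the rule for members, formed a list of 32 genes. Of these, 12 were called with WDR5 siRNA (37.5%) and 19 with control siRNA (59.4%), beside 71.9% and 82.5% of all names. The 7 called only with control siRNA were 36.8% of the 19 (interval 16.3 to 61.6%), beside 13.5% over all names. Most genes of the list with a promoter table row were N-Myc-non-binding, and the interval includes the 17.9% over all non-binding promoters. The 7 were FLT4, the VEGFC receptor, INSRR, KL, which encodes the Klotho co-receptor, KIT and its ligand KITLG, FLT3, and ANGPTL4. TGFA, HBEGF and BTC, which encode ligands of EGFR, and PGF, a VEGF relative, were called in both. EGF itself, KDR and 11 others, FIGF (VEGFD) among them, were in neither list. Of the extracellular cofactors, 15 of the 18 called with control siRNA were called in both, such as HSPG2, GPC1, GPC3 and SDC1, the core proteins of heparan sulfate proteoglycans. PAPPA, a protease that cuts IGFBP4, STC1 and the plasminogen activator gene PLAT were called only with control siRNA (16.7%, beside 13.5%). All these lists are described by their counts, and no test sets them apart from each other.

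Markers were read to check the labelled cell type. Over all names, 71.9% were called with WDR5 siRNA and 82.5% with control siRNA, and 13.5% of control calls were missing with WDR5 siRNA. Of 18 adrenergic neuroblastoma genes, 14 were called with WDR5 siRNA (77.8%) and 17 with control siRNA (94.4%). The 14 were called in both, HAND2 and GATA3 among them. TH, DBH and DDC were called only with control siRNA (17.6% of the 17), and SLC18A1 was in neither list. Of 18 markers of blood, epithelium, liver, muscle and endothelium, none was called in either library. Of 11 mesenchymal and fibroblast genes, 36.4% were called with WDR5 siRNA and 72.7% with control siRNA. By gene, 4 were called in both, 4 only with control siRNA and 3 in neither. PDGFRA and PDGFRB, which such cells express, had the call of the second of these groups, and the part of mesenchymal cells in the receptor calls was not tested. WDR5 itself was called in both libraries, which says nothing about the level of its RNA or protein.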

How the data were processed

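H3K4me3 was profiled in 2 of the 6 libraries, 1 per siRNA. The IgG and input libraries were not used here. BWA 0.7.12, bedtools and hg19 are named in the submitters' processing notes. No source used here states the peak caller, its threshold or how N-Myc binding was called. The authors deposited gene names and TSS positions in no measured unit, per the file headers. Column SCR was read as the control siRNA library and the other as WDR5 siRNA.

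Names were made distinct within each list (92 names repeated in the control list, 71 in the WDR5 siRNA list, none of them a member) and classed by presence. Each 1-base interval was read as ending at the TSS. Calls were joined to promoters and RefSeq (GRCh38.p14) by name, and all 54 members matched a symbol or an older synonym. No coordinates were moved between builds. The members, roles and lists were chosen with earlier results of these data known. All members were named, and from the pathway lists the genes called in 1 library plus up to 4 called in both, with others named as cases of interest. The level-based results planned could not be computed, since the tables hold none. Intervals are exact (Clopper-Pearson, 95%) or Newcombe for a difference. The classing returned the labels put into simulated lists, which checks the code and not the calls. Alternatives changed roles, denominators, name matching, promoter scope and families. Computation used Python 3.11.15, pandas 2.3.3, scipy 1.17.1, statsmodels 0.14.6 and matplotlib 3.10.9.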

Additional observations from a re-analysis of the deposited data

How the results depend on the processing

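Without the FGF ligands, 1 of 10 ligands called with control siRNA lacked a WDR5 siRNA call (10.0%, against 38.9% with them), since 6 of the 7 were FGFs. Without the whole FGF family, 5 members were listed only with control siRNA and 4 in neither list, and without the angiopoietins 0 were listed only with WDR5 siRNA, in each case because the family held those genes. The ligand share stayed within its interval over genes when intracellular FGFs were counted as ligands, when all ligands were the denominator (7 of 28) and for ligands with a table row (33.3%). The receptor share stayed within its interval for kinase receptors alone, for all receptors as the denominator (4 of 14) and for receptors with a table row (30.0%). These intervals are wide (17.3 to 64.3% for ligands, 9.09 to 61.4% for receptors), so staying within them is a weak check. A share with all names of a role as the denominator is also a different measure. Names with a single row gave the same counts, and no member with a table row had another listed TSS within 2 kb. Merging older and newer symbols also gave the same counts, but only names already counted as members were merged. That check could not add a gene under an older symbol outside the rule, such as FIGF for VEGFD, which was in neither list. No paired analysis was possible because each siRNA had 1 library, and for the same reason no library could be left out. Depth is unknown, so a missing call may be a peak just under the authors' threshold.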

Other observations

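Neighbours in the control list, which follows genome order, were read for each member. Of the 13 members called only with control siRNA, 4 had a control-only name directly before or after them (30.8%), beside 38.2% of all control-only rows. PDGFA stood between 2 such names, both of uncharacterised transcripts, and PDGFRA between GSX2 and KIT. FGF5 was followed by C4orf22 and IGFBP3 by TNS3. Among the 28 members called in both, 6 had such a neighbour (21.4%, beside 22.7% of all rows called in both), among them IGF2, which is followed by TH. FGF18, FGF19 and FGF22 lay between genes called in both libraries, with NPM1 and FBXW11 around FGF18, ORAOV1 and FADD around FGF19, and POLRMT and RNF126 around FGF22. FGF8, FGF9, FGFR4, FGFRL1, IGFBP6 and PDGFRB also lay between genes called in both. Since 38.2% of all control-only rows had a control-only neighbour, lacking one was the more common case and does not set these members apart.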
